A study of Mus musculus with 219 samples.

Results

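The transcripts described here are those of 10 genes of the Hippo pathway, out of 32285 genes counted, in mouse 2-cell embryos and blastocysts. The 10 genes were chosen by name and not by their level: the transcriptional coactivators Yap1 and Wwtr1 (the gene of Taz), the DNA-binding partners Tead1, Tead2 and Tead4, the kinases Lats1 and Lats2, the scaffold proteins Amot and Amotl2, and Nf2, the gene of Merlin. Earlier results of these data were known when the genes were chosen. All 10 symbols were found in the count tables of both stages.

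In the Hippo pathway, the Lats kinases phosphorylate Yap and Taz and thereby keep them out of the nucleus. Angiomotins and Merlin act upstream, at the cell cortex and at cell junctions, and promote the activity of Lats. Unphosphorylated Yap enters the nucleus and binds Tead factors, which have no strong activation domain of their own. In the preimplantation mouse embryo, outer cells hold nuclear Yap and, with Tead4, switch on trophectoderm genes such as Cdx2 and Gata3, whereas active Lats keeps Yap in the cytoplasm of the inner cells.

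The study injected sperm heads of CD1 males into B6C3F1 oocytes (genotype B6C3F1xCD1 in all samples) at 1 of 3 imposed sites, to ask whether the site of fertilization shapes the first cleavage and the difference between sister blastomeres. The site was contralateral to the meiotic spindle (the vegetal pole), isolateral to it (the animal pole) or equatorial. Embryos were grown in KSOM with amino acids. They were either split at the 2-cell stage and sequenced as single sister blastomeres, or split and cultured as single blastomeres to give twin blastocysts, or left whole to give intact blastocysts.

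At the 2-cell stage, 55 embryos had both sisters above the minimum of 9500 detected genes, namely 21 contralateral, 21 isolateral and 13 equatorial embryos. The counts of both sisters were added, so that the embryo was the replicate. The 19 twin pairs (6 contralateral, 7 isolateral, 6 equatorial) were added in the same way and set beside 31 intact blastocysts (11, 8 and 12). Values are given as CPM, the count of the gene as a share of the embryo's total count on the usual scale, with the SD over embryos, and differences as log2 fold changes from edgeR with their SE. A difference counted as called when the adjusted p (Benjamini-Hochberg over all genes tested) was under 0.05. Levels of different genes were compared per length, as TPM.

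The added counts ran from 1255481 to 3976094 per 2-cell embryo and from 1676976 to 3095134 per twin pair, but only from 234099 to 1254428 per intact blastocyst. A count of 0 in an embryo therefore allowed a level of up to 2.39 CPM in the shallowest 2-cell embryo and 12.8 CPM in the shallowest intact blastocyst (3 counts, counting error only). Of the intact blastocysts, 6 had under 500000 counts, 4 of them contralateral and 2 equatorial. Equatorial 2-cell embryos were shallower (median 2179480 counts) than contralateral (2675360) and isolateral ones (3050510). The 8 oocyte and 2-cell markers summed to between 2408 and 3454 CPM in 2-cell embryos and to at most 34.2 CPM in blastocysts, and the 7 trophectoderm markers to at most 216 CPM in 2-cell embryos and at least 3041 CPM in blastocysts. Cumulus markers stayed at or below 37.1 CPM in 2-cell embryos and 1.88 CPM in blastocysts, and Amh was at 0 throughout. The 2-cell embryos of each ICSI site filled their own rows, and the blastocysts of each site and kind stood in blocks of adjacent wells that shared some rows, so group and plate position cannot be fully told apart. Plate 1 held 42 of the 55 2-cell embryos, and plate 2 the other 13 and all blastocysts.

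Yap1 lies on the minus strand of chromosome 9 (7931999 to 8004596, GRCm38), where its exons overlap the antisense gene Gm20416. Since counting ignored strand, reads from the shared bases cannot be told apart. Exons of Tead2 overlap the antisense gene Cd37 by 13 bases. Lats2 shares 2955 of its exonic bases with the protein-coding gene Gm49361 on the same strand, which is not among the genes counted, so counts given as Lats2 may hold reads of either gene. Nf2 lies on chromosome 11 (4765845 to 4849536, minus strand), Tead1 on chromosome 7 (112679318 to 112906807, plus strand), Tead4 on chromosome 6 (128224288 to 128300823, minus strand), Amotl2 on chromosome 9 (102716672 to 102733418, plus strand) and Amot on chromosome X (145446425 to 145505181, minus strand).

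Because Tead factors bind the element GGAATG, the RefSeq promoter windows (GRCm38.p6, 250 bases before to 50 after the start) were searched for these letters on both strands (reverse complement CATTCC). Of the 10 genes, 8 had a window, and 4 of the 8 held the element: Yap1, Wwtr1, Amotl2 and Lats2. Of all genes with a window, 16.6% held it, and of all windows 14.7%. In Lats2 it lay after the start, from base 4 to 9, in the window chr14:57746074-57746373. The Lats2 window chr14:57734369-57734668 did not hold it, and both windows lie inside the annotated gene. In the other 3 genes it lay before the start, and those 250 upstream bases are shown 5′ to 3′ on the gene's strand, with the element in capitals, because these genes moved in opposite directions between the stages. Their positions are chr9:8004597-8004846 (minus strand) for Yap1, chr3:57575877-57576126 (minus strand) for Wwtr1 and chr9:102717554-102717803 (plus strand) for Amotl2. The bases shown for Amotl2 lie inside the annotated gene (102716672 to 102733418), so they precede an internal RefSeq start.
Yap1: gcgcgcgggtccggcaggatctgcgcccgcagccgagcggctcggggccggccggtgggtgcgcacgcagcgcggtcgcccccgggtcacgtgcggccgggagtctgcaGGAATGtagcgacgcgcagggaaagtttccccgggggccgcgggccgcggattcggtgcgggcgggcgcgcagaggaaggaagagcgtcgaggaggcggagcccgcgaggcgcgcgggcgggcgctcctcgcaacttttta
Wwtr1: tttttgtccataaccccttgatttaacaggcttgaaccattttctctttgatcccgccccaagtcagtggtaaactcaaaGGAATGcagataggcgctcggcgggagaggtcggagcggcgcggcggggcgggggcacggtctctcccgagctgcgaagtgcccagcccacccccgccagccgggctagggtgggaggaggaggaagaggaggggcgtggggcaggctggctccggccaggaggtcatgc
Amotl2: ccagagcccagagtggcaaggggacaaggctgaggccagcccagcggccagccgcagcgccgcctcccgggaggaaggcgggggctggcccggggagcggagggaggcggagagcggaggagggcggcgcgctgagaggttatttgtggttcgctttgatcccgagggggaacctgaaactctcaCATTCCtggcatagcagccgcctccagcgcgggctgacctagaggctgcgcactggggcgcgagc
The element lay 141 to 136 bases before the start in Yap1, 170 to 165 bases before it in Wwtr1 (beginning 136 bases before the start in its second RefSeq window, chr3:57575861-57576160) and, on the opposite strand, 65 to 60 bases before it in Amotl2. The upstream bases of Yap1 were 76.4% G or C with 44 CpG dinucleotides, against a median of 52.4% and 6 over all windows. A match of 6 letters describes the sequence and does not show that a factor was bound there.

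Yap1 was the most abundant of the 10 transcripts per length in 2-cell embryos, with a median of 151 TPM (mean 157 ± 41.8, SD, n = 55). Nf2 followed with 37.5 TPM, then Wwtr1 with 12.4, Lats1 with 9.61, Tead2 with 5.88, Tead1 with 4.15, Tead4 with 2.59, Amot with 1.62, Lats2 with 0.406 and Amotl2 with 0 TPM. The mean ± SD ranges of Yap1 and Nf2 did not overlap, whereas those of every later pair of neighbours in this order did. Yap1 exceeded Wwtr1 in TPM in 55 of 55 embryos, by a median of 3.43 on the log2 scale. Amotl2 had no count in 49 of 55 embryos, and Tead4 and Lats2 had none in 20 embryos each.

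**Figure D1:**
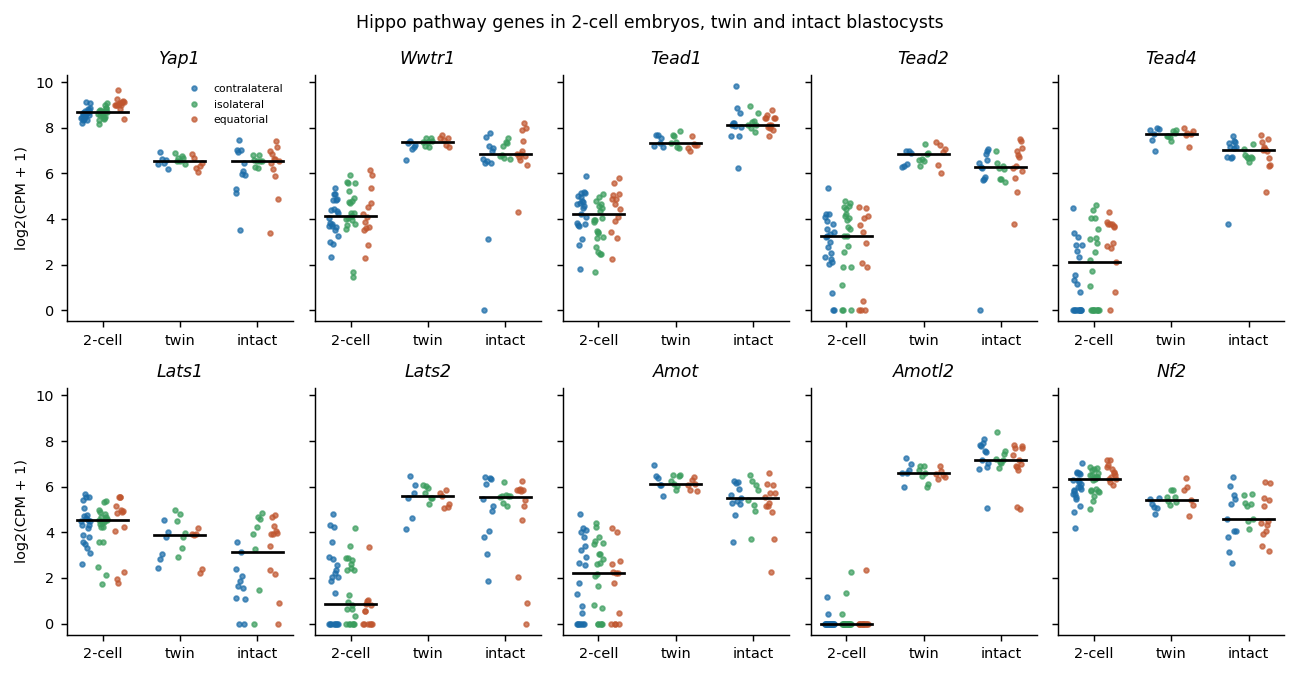
Level of each of the 10 genes, as log2(CPM + 1) per embryo, in 2-cell embryos (n = 55), twin pairs (n = 19) and intact blastocysts (n = 31). Points are embryos, coloured by ICSI site, and bars are medians. Yap1, Lats1 and Nf2 sit higher in 2-cell embryos, and the other 7 genes sit higher in blastocysts.

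The comparison of ICSI sites asked whether the place of sperm entry leaves a trace in the 2-cell transcriptome. Yap1 was lower after contralateral and after isolateral ICSI than after equatorial ICSI, and Nf2 was lower after contralateral than after equatorial ICSI. No other member was called at the 2-cell stage.

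Yap1 ranged from 294 to 565 CPM with a median of 396 in contralateral embryos, from 289 to 540 with a median of 411 in isolateral embryos and from 332 to 808 with a median of 528 in equatorial embryos. The groups overlapped, but 19 of 21 contralateral and 20 of 21 isolateral embryos lay below the equatorial median. The means were 399 ± 68.6 (n = 21), 406 ± 61.4 (n = 21) and 536 ± 105.3 CPM (n = 13). Contralateral embryos were 1.36-fold lower than equatorial ones (log2 fold change -0.44 ± 0.087 SE, adjusted p = 0.000281, edgeR quasi-likelihood test). Isolateral embryos were 1.37-fold lower (-0.46 ± 0.090, adjusted p = 0.000841).

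Nf2, whose protein Merlin recruits Lats to the cell cortex, ranged from 17.4 to 129.5 CPM with a median of 61.6 in contralateral embryos, from 31.8 to 116.97 with a median of 82.5 in isolateral embryos and from 65.9 to 144 with a median of 96.7 in equatorial embryos. Of the contralateral embryos, 12 of 21 lay below the lowest equatorial embryo. The contralateral mean of 65.4 ± 26.9 CPM was 1.55-fold below the equatorial mean of 100.1 ± 25.0 by the fitted value (-0.63 ± 0.18, adjusted p = 0.0136). The isolateral mean of 76.8 ± 24.6 CPM lay between them, and its difference from the equatorial group was not called (-0.44 ± 0.19, adjusted p = 0.173).

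Among the 9 members tested (Amotl2 did not pass the filter on low counts), 2 were lower in contralateral than in equatorial embryos, where 6.06% of the 13141 genes tested were lower. For isolateral against equatorial embryos, 1 of 9 was lower, against 3.22% of all genes. Contralateral and isolateral embryos were not told apart by any member (0 of 9, with 0% of 13141 genes called by edgeR and 555 at an unadjusted p under 0.05). DESeq2 also called 0 genes in that comparison, with 683 at an unadjusted p under 0.05. The member nearest to a difference there was Tead1, at 22.3 ± 12.6 CPM in contralateral and 14.5 ± 9.12 CPM in isolateral embryos (0.74 ± 0.31, unadjusted p = 0.0191, adjusted p = 1, edgeR).

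The differences in Yap1 and Nf2 were called on plate 1 alone and not on plate 2 alone, which held only 2 equatorial embryos, and the difference between the plates was not tested. On plate 1, Yap1 averaged 389 ± 62.9 CPM in 18 contralateral, 385 ± 46.2 in 13 isolateral and 553 ± 93.7 in 11 equatorial embryos, and the highest isolateral embryo (439 CPM) lay below the lowest equatorial one (456 CPM). On plate 2, the means were 460 ± 82.7 in 3 contralateral, 440 ± 70.4 in 8 isolateral and 444 CPM in 2 equatorial embryos, which stood at 332 and 556 CPM. Within plate 1, the fitted differences from the equatorial group were -0.50 (contralateral, adjusted p = 5.81e-05) and -0.53 (isolateral, adjusted p = 0.000298). Within plate 2 they were 0.06 (adjusted p = 1) and -0.01 (adjusted p = 0.995), where no gene was called by edgeR (853 and 906 of 15162 at an unadjusted p under 0.05).

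Nf2 averaged 62.02, 75.6 and 103 CPM on plate 1 (contralateral, isolateral and equatorial) and 85.6, 78.6 and 84.5 CPM on plate 2 (contralateral against equatorial -0.72 on plate 1, adjusted p = 0.00877). With depth and the number of detected genes as covariates, Yap1 remained called for contralateral embryos (-0.35, adjusted p = 0.00522). It was not called for isolateral embryos (-0.30, adjusted p = 0.129), and neither was Nf2 for contralateral ones (-0.56, adjusted p = 0.0723). Nf2 was also not called in the 48 pairs of low mitochondrial share (-0.56, adjusted p = 0.0798). The part of plate and depth in these differences was not tested beyond these fits.

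**Figure D2:**
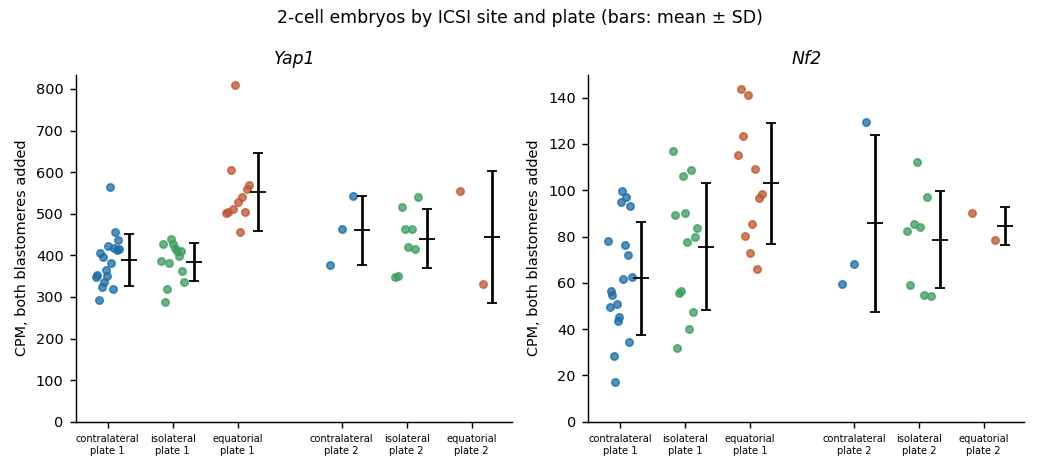
Level of Yap1 and Nf2 (CPM, counts of both sister blastomeres added) in 2-cell embryos by ICSI site and plate. Points are embryos and bars are the mean ± SD. On plate 1 the equatorial embryos average 553 CPM of Yap1 against 389 and 385 CPM, and on plate 2 the 3 site means lie between 440 and 460 CPM.

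The remaining members were low at the 2-cell stage and varied widely. Lats2 had a median of 3.09 CPM in contralateral, 0.896 in isolateral and 0.473 in equatorial embryos (contralateral against equatorial 2.25 ± 1.01, adjusted p = 0.134). Tead4 had medians of 0.732, 2.31 and 11.5 CPM, and 20 of 21 contralateral embryos lay below the equatorial median (-1.48 ± 0.87, adjusted p = 0.288). Tead1 had medians of 22.4, 13.4 and 24.6 CPM (isolateral against equatorial -0.90 ± 0.34, adjusted p = 0.108). With SEs of this size, differences of about the size seen for Yap1 were not detectable in these genes. Wwtr1 (medians 15.6, 18.3 and 15.8 CPM), Tead2 (8.22, 10.7 and 6.72), Lats1 (21.2, 21.96 and 28.4) and Amot (2.48, 5.19 and 3.59) had adjusted p values from 0.573 to 0.997 against the equatorial group.

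Other genes of the pathway were counted from lists of known components. Of 9 tested core kinases and their partners, 1 was higher and 2 were lower in contralateral than in equatorial embryos, where 7.12% of all genes tested were higher and 6.06% lower. The higher one was Stk3, an Mst kinase that activates Lats, with 122.1 ± 38.5 against 74.5 ± 22.6 CPM (0.68 ± 0.17, adjusted p = 0.00354). Stk3 was also higher in isolateral embryos (108.04 ± 30.5 CPM, 0.57 ± 0.17, adjusted p = 0.0290), where 3.43% of all genes tested were higher. The lower ones were Taok2 (-0.97 ± 0.27) and Map4k4 (-0.95 ± 0.34), both kinases that act on Mst or Lats.

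Of 9 tested junction and cortex regulators, 2 were lower in both comparisons and none was higher. Of all genes tested, 6.06% (contralateral) and 3.22% (isolateral) were lower. They were Wwc2, a relative of Kibra, which binds Lats (-0.45 ± 0.079 contralateral and -0.45 ± 0.082 isolateral), and Limd1, a LIM protein that restrains Lats (-0.61 ± 0.19 and -0.69 ± 0.19). Wwc2 stood at 901 ± 156, 897 ± 138 and 1223 ± 187 CPM in contralateral, isolateral and equatorial embryos, above Yap1 on this scale, which does not correct for length. With depth and detected genes as covariates, 61 genes were called for isolateral against equatorial embryos, 60 higher and 1 lower. At most 1 of Wwc2 and Limd1 was therefore still called lower in that fit. On plate 2 alone, no gene was called against the equatorial group. The median difference of the kinase list was 0.13 and that of the regulators -0.45 (contralateral against equatorial), beside -0.000146 over all genes tested. The list of Tead cofactors also holds Tead3, itself a Tead factor. No tested gene of that list (0 of 2) and no target (0 of 1) was called. None of them had an unadjusted p under 0.05 for contralateral against equatorial embryos (edgeR). For isolateral against equatorial embryos, 1 of the 2 tested genes of the cofactor list did (edgeR).

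**Figure D3:**
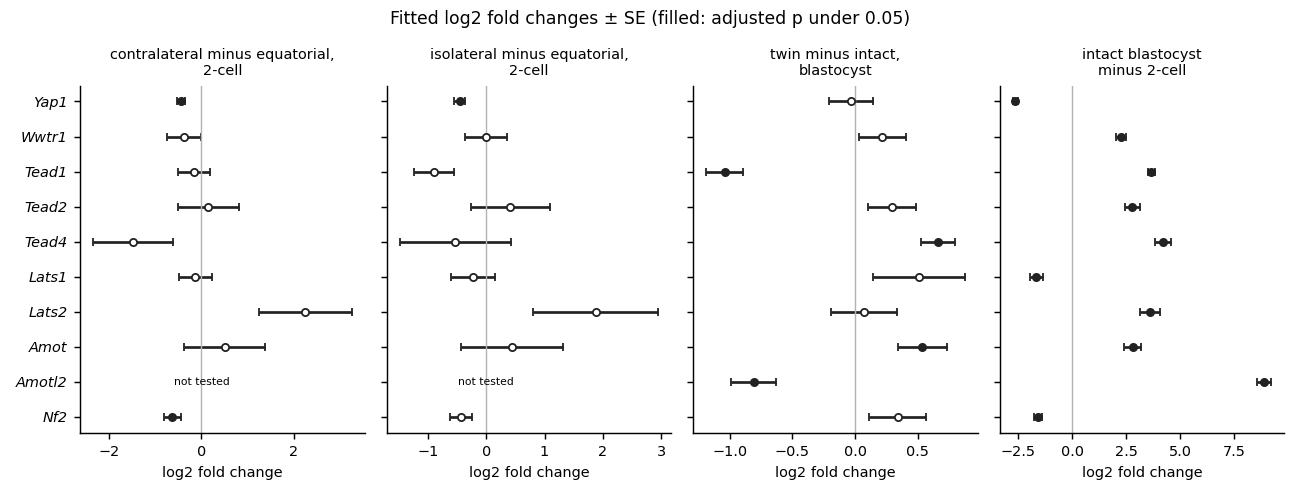
Fitted log2 fold change ± SE of each gene in 4 comparisons (x axis, log2 scale), with filled points where the adjusted p was under 0.05. Yap1 is called in both 2-cell comparisons and Nf2 in 1, 4 genes are called between twin and intact blastocysts, and 10 between intact blastocysts and 2-cell embryos.

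Sister blastomeres of the same embryo differed less in Yap1 and Nf2, the members of highest level, than in Tead1, Tead2, Tead4, Lats1, Amot and Wwtr1. The absolute difference between sisters in log2(CPM + 1) had a median of 0.277 for Yap1 and 0.581 for Nf2 over 55 pairs. It was 1.31 for Tead1, 1.21 for Tead2, 1.18 for Tead4, 1.72 for Lats1, 1.10 for Amot and 2.26 for Wwtr1. For Wwtr1, 1 sister had no count in 15 of 55 pairs although the other had some, and for Lats1 this was so in 10 pairs.

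Counting error of reads, taken as independent draws, did not cover the differences in many pairs. By an exact binomial test of the counts of each pair, 40 of 55 pairs differed at an unadjusted p under 0.05 for Wwtr1, 41 for Lats1, 38 for Tead1, 36 for Yap1 and 33 for Nf2. The share of variance between embryos rather than within pairs (intraclass correlation) was 0.319 for Yap1 and 0.320 for Nf2, but -0.197 for Wwtr1 and -0.104 for Lats1, where sisters were no more alike than blastomeres of different embryos. The variance between embryos includes that between ICSI sites, which differed in Yap1 and Nf2. The libraries held no molecular identifiers, so the reads of a gene need not be separate molecules. The binomial test does not cover the error of drawing few molecules, and the part of amplification was not tested.

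**Figure D4:**
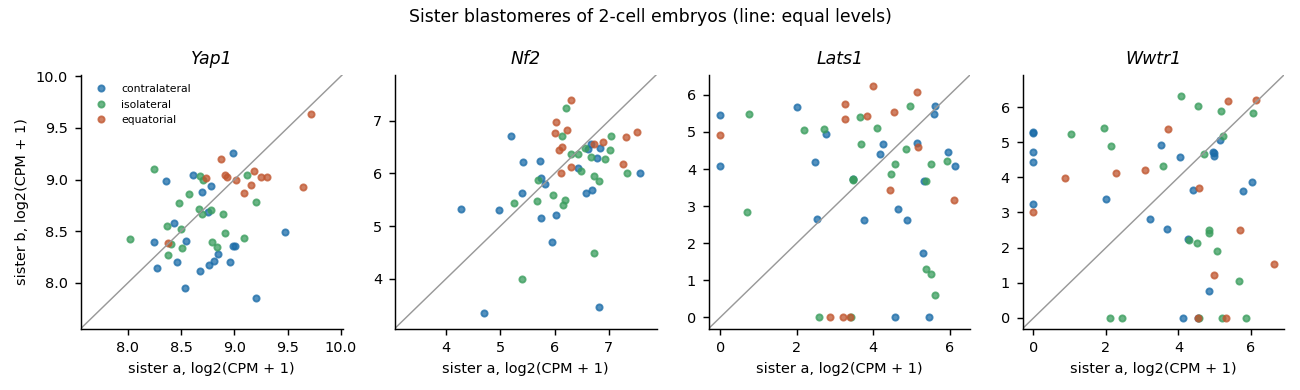
Level of Yap1, Nf2, Lats1 and Wwtr1 in sister b against sister a, as log2(CPM + 1), for 55 2-cell embryos coloured by ICSI site. The line marks equal levels. Pairs lie closer to the line for Yap1 (median difference 0.277) than for Wwtr1 (2.26).

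The letters a and b carry no stated order and were compared as a check. Of the 6 members tested, 0 differed between b and a, and 0% of 9810 genes did (edgeR, 464 at an unadjusted p under 0.05). DESeq2 called 8 genes, none of them a member. Yap1 was at -0.13 ± 0.055 (unadjusted p = 0.0227) and Nf2 at -0.27 ± 0.12 (unadjusted p = 0.0292), both with an adjusted p of 0.999.

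The size of the sister difference was then compared between ICSI sites, since the study asked whether the site of entry changes how alike sisters are. For Yap1 the median difference was 0.563 (0.0684 to 1.35) in contralateral, 0.288 (0.0267 to 0.860) in isolateral and 0.212 (0.00921 to 0.722) in equatorial embryos. The contralateral pairs reached higher than the equatorial ones, with wide overlap, and the difference of 0.26 ± 0.094 was not called by limma (unadjusted p = 0.00647, adjusted p = 0.247). A permutation test of each member gave, for Yap1, unadjusted p values of 0.0107 against equatorial and 0.0323 against isolateral pairs. These were the only 2 under 0.05 among 30 such tests of members and are not adjusted for that number. Over all 62 pairs the Yap1 difference was 0.20 against equatorial pairs (limma, unadjusted p = 0.174). Against isolateral pairs it was 0.0195 (limma, unadjusted p = 0.882). No member was called by limma in any of the site comparisons of sister differences, where 0.259% (contralateral against equatorial), 0.221% (isolateral against equatorial) and 0% (contralateral against isolateral, 632 genes at an unadjusted p under 0.05) of genes were. Of the genes called, 34 of 34 (contralateral) and 28 of 29 (isolateral) had smaller sister differences than in equatorial pairs. Among the members, besides Yap1, the only unadjusted p under 0.05 by limma was that of Lats2 (isolateral against equatorial, 1.21 ± 0.52, unadjusted p = 0.0231, adjusted p = 0.322).

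Between the 2-cell stage and the intact blastocyst, every member changed. Of the 10, 7 were higher in blastocysts, where 35.7% of 12645 genes were, and 3 were lower, where 49.1% were. Values are shares of each stage's own total, and the median of all genes fell by 0.43 on the log2 scale (0.11 without TMM factors). The direction of each member was the same under every scaling tried. Every intact blastocyst was shallower (at most 1254428 counts) than every 2-cell embryo (at least 1255481), so stage and depth were not separated. All blastocysts were on plate 2, with 13 of the 2-cell embryos. Against these 13, the median of all genes was 0.06 and each member kept its direction. With twin pairs, whose depth lay within that of 2-cell embryos, directions also held, with Lats1 at -0.90 and Nf2 at -1.01. The part of depth and plate was not tested further. Because whole embryos were measured, fewer cells of a type and less RNA per cell cannot be told apart.

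Of the coactivators, Yap1 fell and Wwtr1 rose. Yap1 went from 289 to 808 CPM (median 417) in 2-cell embryos to 9.46 to 177 CPM (median 91.4) in intact blastocysts, without overlap (-2.63 ± 0.12, adjusted p = 5.08e-37). Wwtr1 went from 1.76 to 70.9 CPM (median 16.8) to 0 to 292 CPM (median 114.1), and 28 of 31 blastocysts lay above all 2-cell embryos (2.26 ± 0.22, adjusted p = 9.75e-17). The order of the pair per length turned with the stage: Yap1 exceeded Wwtr1 in TPM in 55 of 55 2-cell embryos, in 1 of 31 intact blastocysts and in 0 of 19 twin pairs.

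The Tead genes rose together. Tead1 went from a median of 17.4 CPM (2.16 to 57.7) to 279 CPM (73.3 to 915), without overlap (3.67 ± 0.18, adjusted p = 5.47e-35). Tead4, the factor required for the trophectoderm, went from 3.35 CPM (0 to 23.7) to 129.2 CPM (12.8 to 202), and 30 of 31 blastocysts lay above all 2-cell embryos (4.22 ± 0.38, adjusted p = 4.83e-18). Tead2 went from 8.56 CPM (0 to 39.8) to 77.4 CPM (0 to 179; 2.79 ± 0.33, adjusted p = 7.81e-13). Per length, Tead4 made up a median of 21.6% (0% to 83.2%) of the summed TPM of Tead1 to Tead4 in 2-cell embryos. In intact blastocysts Tead4 made up 43.2% (12.6% to 62.2%). The median of Tead2 went from 32.6% (0% to 93.4%) to 21.7% (0% to 45.1%). The median of Tead1 went from 23.9% (2.79% to 100%) to 27.9% (7.63% to 71.5%). The mean of Tead1 went the other way, from 34.1% to 30.01%. The 2-cell shares rest on low levels, with a median summed TPM of 14.4, and varied widely between embryos.

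The Lats kinases moved in opposite directions. Lats1 fell from a median of 21.96 CPM (2.35 to 49.6) to 7.74 CPM (0 to 27.5; -1.66 ± 0.31, adjusted p = 7.50e-07), and Lats2 rose from 0.797 CPM (0 to 26.6) to 45.3 CPM (0 to 85.2; 3.597 ± 0.47, adjusted p = 3.33e-11). Both angiomotins rose. Amot went from 3.59 CPM (0 to 27.1) to 44.1 CPM (3.74 to 97.03; 2.80 ± 0.41, adjusted p = 1.17e-09). Amotl2 went from at most 4.07 CPM, with 49 of 55 embryos at 0, to 31.8 to 333 CPM (median 142). Its fitted value of 8.89 rests on the prior count added to the zeros. Amotl2 could be tested here only because of its level in blastocysts, so a fall could not have been seen. Nf2 fell from 78.6 CPM (17.4 to 144) to 22.9 CPM (5.21 to 83.6; -1.58 ± 0.17, adjusted p = 3.57e-14).

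Among the listed pathway genes, 2 kinases rose and 4 fell of 9 tested, and 4 junction regulators rose and 3 fell of 10. On the Tead cofactor list, which also holds Tead3, 3 genes rose (Vgll3, Tead3 and Vgll4) and 1 fell of 4 (Vgll1). Of 7 listed targets, 3 passed the filter on low counts, and these 3 rose. Cdx2, Ccn1, Vgll3 and Tead3 had a median of 0 CPM in 2-cell embryos. They could be tested only because of their level in blastocysts, so a rise was the only outcome open to them. Of all 12645 genes tested, 35.7% were higher and 49.1% lower in blastocysts. Examples were Wwc2 (-3.10 ± 0.098), Taok1 (-1.89 ± 0.074), Wwc1, the gene of Kibra (3.06 ± 0.26), and the Tead3 gene (4.35 ± 0.52). Of the targets, Gata3 went from 31.4 ± 21.8 to 753 ± 236 CPM, Cdx2 from 0.171 ± 0.881 to 72.8 ± 36.5 CPM and Ccn1 from 1.80 ± 4.07 to 23.2 ± 21.3 CPM. The medians of these lists were -0.59, 0.37, 2.76 and 4.26, beside -0.43 over all genes.

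Twin blastocysts, which grew from separated 2-cell blastomeres, were compared with intact blastocysts of the same sites. Twins had more Tead4 and Amot and less Tead1 and Amotl2, and the other 6 members were not called.

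Tead1 ranged from 126.8 to 231 CPM with a median of 160 in 19 twin pairs and from 73.3 to 915 CPM with a median of 279 in 31 intact blastocysts. The ranges overlapped, yet 19 of 19 twin pairs lay below the intact median. Tead1 was 2.06-fold lower in twins (-1.04 ± 0.15, adjusted p = 4.00e-08). Tead4 ranged from 123.7 to 252 CPM with a median of 212 in twins and from 12.8 to 202 CPM with a median of 129.2 in intact blastocysts, and 12 of 19 twin pairs lay above all intact blastocysts. Tead4 was 1.58-fold higher in twins (0.66 ± 0.14, adjusted p = 7.23e-05).

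Amotl2 ranged from 61.8 to 150 CPM (median 96.0) in twins and from 31.8 to 333 CPM (median 142) in intact blastocysts, with 18 of 19 twin pairs below the intact median (-0.81 ± 0.18, adjusted p = 0.000182). Amot ranged from 46.5 to 123.85 CPM (median 68.9) in twins and from 3.74 to 97.03 CPM (median 44.1) in intact blastocysts, with 19 of 19 twin pairs above the intact median (0.54 ± 0.20, adjusted p = 0.0222). With twin b alone in place of the pair, Amot was not called (0.39, adjusted p = 0.138). Of the 10 members, 2 were higher in twins, where 20.4% of 9379 genes were, and 2 were lower, where 21.9% were.

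**Figure D5:**
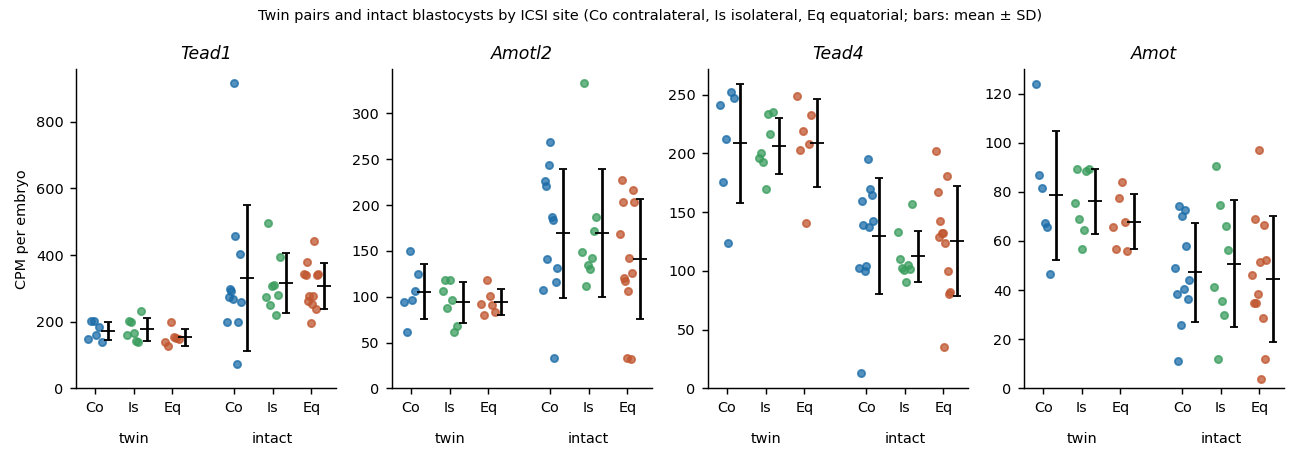
Level of Tead1, Amotl2, Tead4 and Amot (CPM per embryo, twins of a pair added) in twin and intact blastocysts of each ICSI site. Points are embryos and bars are the mean ± SD. Tead1 and Amotl2 sit lower in twins, and Tead4 and Amot sit higher, at each of the 3 sites.

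Yap1 had a median of 92.4 CPM in twins and 91.4 CPM in intact blastocysts (-0.03 ± 0.18, adjusted p = 0.900). Wwtr1 (0.22 ± 0.19), Tead2 (0.29 ± 0.19), Lats1 (0.51 ± 0.36), Lats2 (0.07 ± 0.26) and Nf2 (0.34 ± 0.23) had adjusted p values from 0.210 to 0.851. For Nf2, 19 of 19 twin pairs lay above the intact median of 22.9 CPM. The median was 11.1 CPM in the 6 intact blastocysts under 500000 counts and 34.3 CPM in the other 25. With depth and detected genes as covariates, Nf2 was at -0.0450 (adjusted p = 0.922, edgeR).

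Within the summed Tead transcripts, Tead4 made up a median of 61.1% (53.6% to 68.7%) in twins and 43.2% (12.6% to 62.2%) in intact blastocysts, and Tead1 made up 13.8% (9.21% to 18.8%) and 27.9% (7.63% to 71.5%). The summed TPM of the 4 genes overlapped (176 to 335 in twins, 80.8 to 380 in intact blastocysts). In order of TPM, twins had Tead4 (median 168), Wwtr1 (98.7), Tead2 (68.6), Amotl2 (43.9), Tead1 (32.3), Yap1 (28.6), Amot (25.6), Lats2 (18.9), Nf2 (16.7) and Lats1 (5.02). Only Tead4 and Wwtr1, and Nf2 and Lats1, were neighbours whose mean ± SD ranges did not overlap. Intact blastocysts had Tead4 (104), Wwtr1 (69.5), Amotl2 (65.9), Tead1 (60.3), Tead2 (46.4), Yap1 (29.3), Lats2 (18.6), Amot (15.1), Nf2 (10.3) and Lats1 (3.18), with overlap between all neighbours.

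Twin pairs were also deeper than intact blastocysts and had more epiblast transcripts. The 4 epiblast markers summed to 227 to 451 CPM (median 323) in twins and 24.04 to 277 CPM (median 124.4) in intact blastocysts. Of these 4, 3 were called higher in twins, beside 20.4% of all genes tested that were higher and 21.9% that were lower. The 7 trophectoderm markers summed to 3041 to 3810 CPM (median 3498) in twins and 3126 to 6503 CPM (median 3980) in intact blastocysts, with 4 lower (among them Gata3) and Cdx2 higher in twins. The 5 primitive endoderm markers summed to 281 to 500 CPM in twins and 58.5 to 576 CPM in intact blastocysts, with Gata6 higher and Sox7 lower in twins. The part of these cell types and of depth in the members' differences was not tested. Without the 6 intact blastocysts under 500000 counts, all 4 members were still called (Tead1 -0.88, Tead4 0.63, Amotl2 -0.66, Amot 0.48). With depth and detected genes as covariates, Tead1 (-0.71, adjusted p = 0.000857) and Tead4 (0.61, adjusted p = 0.00581) were called, and Amotl2 (-0.43, adjusted p = 0.0980) and Amot (0.32, adjusted p = 0.319) were not.

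The difference between twin and intact blastocysts was seen at each ICSI site for Tead1, at -1.04 ± 0.26 (contralateral, adjusted p = 0.00262), -0.88 ± 0.25 (isolateral, adjusted p = 0.0153) and -1.11 ± 0.25 (equatorial, adjusted p = 0.00175). It was the only member called at the contralateral and equatorial sites, where 17.8% and 13.6% of 10689 genes were called, and at the isolateral site, where 10.9% were, Tead4 was called as well (0.83 ± 0.25, adjusted p = 0.0207). Tead4 was at 0.58 (adjusted p = 0.0788) and 0.65 (adjusted p = 0.0510) at the contralateral and equatorial sites. A test of whether the twin difference itself varied with site called 0 of 10 members and 0% of genes (edgeR, 246 genes at an unadjusted p under 0.05, no member among them; Lats1 had the lowest unadjusted p of the members, 0.0999).

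ICSI sites did not separate the members at the blastocyst stage. Among twins, 0 of 10 members were called in the 3 site comparisons, as were 0% of genes in each (edgeR, 41 contralateral against equatorial, 66 isolateral against equatorial and 62 contralateral against isolateral genes at an unadjusted p under 0.05). Yap1 stood at 93.1 ± 16.2, 99.2 ± 10.6 and 86.9 ± 18.1 CPM in contralateral, isolateral and equatorial twins (n = 6, 7 and 6). Among intact blastocysts, 0 of 10 members were called, with 0.168% of genes called for contralateral against equatorial, 0% for isolateral against equatorial and 0.0187% for contralateral against isolateral ICSI (1391, 855 and 1122 genes at an unadjusted p under 0.05).

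The widest site difference among intact blastocysts was that of Lats1. It stood at 3.20 ± 3.40 CPM (n = 11) after contralateral, 14.7 ± 10.5 CPM (n = 8) after isolateral and 12.1 ± 8.69 CPM (n = 12) after equatorial ICSI. All 11 contralateral blastocysts lay below the median of each other group. The fitted values were -2.07 ± 0.63 (adjusted p = 0.176) and -1.82 ± 0.59 (adjusted p = 0.158), with unadjusted p values of 0.00158 and 0.00298 (edgeR). Lats1 had a median of 1.30 CPM in the 6 blastocysts under 500000 counts, of which 4 were contralateral, and 11.1 CPM in the other 25. The contralateral blastocysts with at least 500000 counts stood at 1.14, 11.1, 2.15, 7.74, 3.19, 1.93 and 1.10 CPM. The part of depth in this difference was not tested.

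Twins of the same embryo were close in level for Yap1, Wwtr1, Tead1, Tead4 and Amotl2. The median absolute difference between twins in log2(CPM + 1) was 0.277 for Yap1, 0.274 for Wwtr1, 0.329 for Tead1, 0.281 for Tead4 and 0.202 for Amotl2, and 0.762 for Lats1 (19 pairs). By the exact binomial test, between 4 (Nf2) and 12 (Tead1) of the 19 pairs differed at an unadjusted p under 0.05. For Wwtr1, the difference between sisters at the 2-cell stage had been 2.26, at a level per embryo of 16.8 CPM against 167 CPM in twins.

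Listed pathway genes differed between twin and intact blastocysts in both directions. Of all 9379 genes tested, 20.4% were higher and 21.9% lower in twins. Of 8 tested kinases and partners, 3 were lower in twins and none was higher: Taok1 (178 ± 25.5 against 253 ± 66.99 CPM, -0.61 ± 0.11), Mob1b, a cofactor of Lats (-0.74 ± 0.21), and Stk3 (-0.49 ± 0.20, adjusted p = 0.0374). Of 10 junction regulators, 2 were lower, the protocadherin Fat1 (-0.81 ± 0.16) and Wwc1 (-0.82 ± 0.17), and 2 were higher, Wwc2 (0.59 ± 0.13) and Rassf1 (1.41 ± 0.44).

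The Tead cofactor list, which includes the Tead factor gene Tead3, held the widest differences. Tead3 stood at 0 to 8.94 CPM (median 1.54) in twins and 0 to 154 CPM (median 25.6) in intact blastocysts (-3.96 ± 0.47, adjusted p = 3.05e-10), and Vgll3, which binds Tead factors, at 98.03 ± 29.5 and 234 ± 82.8 CPM (-1.37 ± 0.15). Vgll1, another Tead partner, was higher in twins (22.5 ± 11.4 against 6.38 ± 9.84 CPM, 1.73 ± 0.44). Of the 3 tested targets, Cdx2 (192 ± 29.9 against 72.8 ± 36.5 CPM, 1.41 ± 0.17) and Ccn1 (57.5 ± 38.6 against 23.2 ± 21.3 CPM, 1.22 ± 0.33) were higher and Gata3 (504 ± 71.97 against 753 ± 236 CPM, -0.68 ± 0.12) was lower in twins. Cdx2 and Gata3 are also in the trophectoderm list. The medians of the kinase, regulator, cofactor and target lists were -0.46, -0.36, -0.63 and 1.22, beside -0.01 over all genes.

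Over the 50 blastocyst embryos, the genes whose log2(CPM + 1) followed Tead4 most closely were Pwwp3a (Spearman rho 0.784), Myh10 (0.780) and Kalrn (0.779), out of 9378 genes compared. These embryos share a split into 19 twin and 31 intact ones, and within the kinds rho was lower, at 0.477 and 0.445 for Pwwp3a, 0.532 and 0.446 for Myh10 and 0.121 and 0.525 for Kalrn. The genes most like Yap1 were Apobr (0.578), Plat (0.574) and Prkar2a (0.552), with rho in intact blastocysts from 0.630 to 0.670 and in twins from 0.288 to 0.389. Depth differed among the intact blastocysts, so these correlations are a description only.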

How the data were processed

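Single blastomeres and single blastocysts were lysed and their RNA was amplified with the SMART-Seq Single Cell Kit, and Nextera XT libraries were sequenced. The deposited values are whole-number counts per gene, which the authors made with Trimmomatic and STAR 2.7.10b in its SmartSeq mode, without regard to strand, on GRCm38. Read pairs of the paired-end blastomere dataset were reduced by the authors to shortened first reads, and the paper does not tie that dataset to a plate. The 2 deposited matrices of each stage, 1 named for removed duplicates, held the same counts, so whether duplicates were collapsed is not clear.

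Of 125 blastomeres in the tables, 62 pairs were complete and 55 pairs had at least 9500 detected genes in both sisters. All 69 blastocysts passed 4000. Library totals ran from 360474 to 2100561 counts in kept blastomeres, 713410 to 2161062 in twin blastocysts and 234099 to 1254428 in intact ones. Counts of sisters or twins were added for the comparisons of sites, kinds and stages, whose p-values measure the spread between embryos. The test of sister b against a used single blastomeres and measures the spread within embryos. The exact binomial test covers only the counting of reads within a pair.

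Tests used edgeR 4.0.16 (R 4.3.3) with TMM factors, filterByExpr and robust quasi-likelihood F tests, with plate as covariate for 2-cell embryos and ICSI site for blastocysts and stages, and embryo as a block for sisters. Sister differences used limma 3.58.1 on log2(CPM + 1). P-values were adjusted over all genes tested, with a threshold of 0.05. TPM used exon lengths of GENCODE M21. The fits were also run on simulated counts without a plate effect, which does not bear on differences that vary with plate. DESeq2 1.42.0, other scalings, filters, covariates and subsets were the alternatives, and plate 2 alone was added after seeing the data.

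The members and the pathway and marker lists were chosen with earlier results of these data known. All 10 members are described in every comparison. From each list, at most the 4 called genes with the smallest adjusted p are named, and for Yap1 and Tead4 the 3 genes with the highest Spearman correlation.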

Additional observations from a re-analysis of the deposited data

Results flagged for a closer look

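In 3 of 40 combinations of a member and a group of 4 to 10 blastocyst embryos, 1 embryo stood apart from the others by Dixon's criterion, which chance alone would meet in about 2. Tead1 in 1 equatorial twin pair stood at 199.5 CPM, and the other 5 pairs lay between 126.8 and 153 CPM. Lats2 in isolateral intact blastocyst 92 stood at 72.1 CPM, and the other 7 lay between 35.05 and 48.9 CPM. Amotl2 in isolateral intact blastocyst 90 stood at 333 CPM, with 573605 counts in all, and the other 7 lay between 111.4 and 186 CPM.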

How the results depend on the processing

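The number of members called stayed within 1.5 times its value in 49 of 57 alternative fits. For contralateral against equatorial embryos (2 members), it was 1 with depth covariates, 1 in the 48 pairs of low mitochondrial share and 0 on plate 2 alone. For isolateral against equatorial embryos (1 member), it was 0 with depth covariates and 0 on plate 2 alone. For twin against intact blastocysts (4 members), it was 2 with depth covariates and 7 with the rank-sum test on TPM, which added Wwtr1, Tead2 and Nf2. For sister differences by site (0 members), the unadjusted permutation test gave 2 p values under 0.05, both for Yap1.

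Of 549 alternative log2 fold changes of members, 43 had the opposite sign, and of 561 of listed genes 3 did. On plate 2 alone, contralateral minus equatorial values were 0.0631 for Yap1, -0.33 for Tead2, 0.0348 for Tead4, 0.58 for Lats1, 0.0355 for Nf2 and -0.28 for Stk3. On the same plate, isolateral minus equatorial values were 1.58 for Tead4 and 1.10 for Lats1, and contralateral minus isolateral values -0.52 for Lats1, -1.74 for Lats2 and 0.13 for Nf2. On plate 1 alone, Wwtr1 was at 0.50 (isolateral minus equatorial) and Amot at -0.42 (contralateral minus isolateral). Wwtr1 (isolateral minus equatorial) was also at 0.000682 with RLE size factors, 0.00754 by library size, 0.000421 with DESeq2 and 0.00990 without the filter. Over all 62 pairs, Tead2 was at -0.0317 (contralateral minus equatorial), Amot at -0.00371 (isolateral minus equatorial) and Yap1 at -0.00556 (contralateral minus isolateral). In the 48 pairs, Amot was at -0.000529 (contralateral minus equatorial) and -0.39 (contralateral minus isolateral), and Lats1 at -0.00300 (contralateral minus isolateral). Yap1, contralateral minus isolateral, was at -0.00938 without the plate term, -0.0558 with depth covariates and -0.0570 in TPM. For twin minus intact blastocysts, Yap1 was at 0.0239 with RLE size factors, 0.0536 by library size, 0.0220 with DESeq2, 0.0299 without the filter, 0.0915 with twin a alone and 0.0653 in TPM. With depth covariates, Lats2 was at -0.61 and Nf2 at -0.0450 in twins, and without the shallow intact blastocysts Lats2 was at -0.13. Sister b minus a over all 62 pairs was -0.11 for Tead1 and 0.15 for Lats1. Absolute sister differences over these pairs were -0.10 for Lats2 (contralateral minus equatorial) and, contralateral minus isolateral, -0.12 for Wwtr1, -0.13 for Tead2 and -0.15 for Nf2. With a pseudocount of 5 the latter were -0.15 for Wwtr1, 0.0453 for Tead1 and -0.0915 for Tead4. Twins in place of intact blastocysts gave 0.81 for Vgll1 and 0.58 for Pou5f1 against 2-cell embryos. The cause was not tested.

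Over all genes, contralateral against equatorial calls went from 1733 to 3930 without the filter on low counts, 1104 in the 48 pairs and 0 on plate 2. Isolateral against equatorial calls went from 874 to 2603, 592 and 0, and to 61 with depth covariates, and contralateral against isolateral calls from 0 to 1577 without the filter. Twin against intact calls went from 3967 to 6385 without the filter, and intact against 2-cell calls from 10730 to 17998. Calls of sister differences went from 34 (contralateral against equatorial) and 29 (isolateral against equatorial) to 22 and 12 with a pseudocount of 5, and to 0 and 1 over all 62 pairs. With the rank-sum test on TPM, higher calls went from 54.01% to 34.9% of contralateral against equatorial, from 51.6% to 39.98% of isolateral against equatorial and from 48.1% to 68.1% of twin against intact calls. No paired analysis was possible between sites, kinds or stages because these groups share no embryo numbers. Depth limits the low members, since a count of 0 in an intact blastocyst allows up to 12.8 CPM.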
